A study of Homo sapiens with 4 samples.

Results

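The genes described here encode the enzymes with which liver cells oxidise and conjugate drugs, steroids and bile acids, namely cytochromes P450 of families 1 to 4 (CYP), UDP-glucuronosyltransferases (UGT), sulfotransferases (SULT) and glutathione S-transferases (GST). They were chosen by gene symbol alone, and 70 of the 34805 gene names on the array belonged to them, 34 CYP, 10 UGT, 11 SULT and 15 GST. The 70 genes were covered by 88 probes, 1 probe for 52 genes and 2 for 18 genes, and each gene was read from its probe with the highest mean signal. RNA came from Hep3B cells, a human hepatocellular carcinoma line, transfected with a plasmid for a mock hairpin (shR-MOCK) or for 1 of 3 short hairpin RNAs against UNC50, which encodes a membrane protein of the Golgi apparatus. The hairpins shR-467, shR-554 and shR-749 are named for the base of the UNC50 mRNA that they target. Cells of all 4 conditions were selected with puromycin at 1 µg/ml, and each condition was measured on 1 one-colour Agilent array. Hairpins stand in for replicates of the knockdown (n = 3), which means that their spread also holds what is particular to 1 reagent. The spread between control cultures is not known, since there was 1 mock array.

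Drug metabolism in the liver runs in stages. Cytochromes P450 are haem enzymes of the endoplasmic reticulum that insert oxygen into lipophilic compounds, with electrons passed on by P450 oxidoreductase. UGT enzymes of the same membrane and SULT enzymes of the cytosol then attach glucuronic acid or sulfate, while GST enzymes join electrophiles to glutathione, and transporters export the products. Hepatocytes carry most of these genes, and hepatoma lines are known to keep only some of them at adult levels.

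UNC50 itself gave signals of 5010, 1050, 853 and 947. Here and below, 4 values without further labels are the arrays of shR-MOCK, shR-467, shR-554, shR-749, and 3 values are the hairpins in that order. After each array was scaled to its 75th percentile, UNC50 stood at 24.0%, 13.7% and 18.7% of the mock level with the hairpins, lower with each as the labels require. The scanner software marks spots that are well above background, and these are called detected here. They were 67.6% to 73.6% of spots, depending on the array, and the lowest signal so marked on an array is called its detection limit, which lay between 21.2 and 28.3. Of 12 hepatocyte and hepatoma markers, 12 were detected on all 4 arrays. No other marker list was silent. Of 5 endothelial markers, PECAM1, CDH5 and VWF were detected on all arrays and KDR and TEK on none, and of 7 markers of fibroblasts and stellate cells, LUM was detected on all arrays and COL1A1, COL3A1 and ACTA2 on none. In addition, 5 of 5 measured leukocyte markers and 5 of 5 cholangiocyte markers were detected throughout, the latter including EPCAM and KRT19, which hepatoma lines can express. The summed signal of the leukocyte list, scaled to the mock array, was 5240 with shR-MOCK and 4980 to 6760 with the hairpins, that of the cholangiocyte list 84300 against 67400 to 85100, that of the endothelial list 270.0 against 289 to 412 and that of the fibroblast and stellate list 214 against 286 to 326. Of the 12 hepatocyte and hepatoma markers 5 were at least 1.5-fold higher on average, where 2.28% of all genes that passed the filter described below were, and limma called 0 of the 12. Their scaled summed signal was 636000 with shR-MOCK against 771000 to 933000. The part of these lists in the differences below was not tested, and a change in the share of cells that express a gene cannot be told apart from a change per cell.

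The probes behind the main values are shown first, because several of them cannot be assigned to 1 gene. Bases 16 to 45 of the 60-base probes are given in lower case, 5′ to 3′, with hg19 positions from the annotation of the array, for which no exon models were used. The 3 UGT1A probes lie close together on chromosome 2, where the transcripts of this locus run into shared exons behind separate first exons. The array annotation lists transcripts of UGT1A1, UGT1A4, UGT1A6 and UGT1A8 for both UGT1A6 probes, and those of UGT1A1, UGT1A4, UGT1A5 and UGT1A8 for the UGT1A8 probe.
UGT1A6, brighter probe (chr2:234681607-234681665, plus strand): aatggtcagtcctcatctctgtcctgactt
UGT1A6, second probe (chr2:234676521-234676580, plus strand): gaacaacacgatacttgttaagtggctacc
The probes of the genes with the lowest and the highest mean difference from the mock array, both on chromosome 19, were each annotated to 1 gene.
CYP4F11 (chr19:16023363-16023422, minus strand): aaataaaatcctgctacaaacattgatctc
SULT2A1 (chr19:48377923-48377982, minus strand): attccctcctgagtgttgattatgtagtgg
The CYP2B6 probes show how far the probe decides what is read. The brighter one is annotated to CYP2B6 and also to its pseudogene CYP2B7P, and gave 33100 on the mock array, while the other is annotated to CYP2B6 alone and gave 203.9.
CYP2B6, brighter probe (chr19:41456455-41456514, plus strand): gggattctgcactggtgctttggattccct
CYP2B6, second probe (chr19:41523525-41523584, plus strand): aaattttgtatttttaggtggtcttgaact
In all, 13 of the 70 chosen probes were annotated to more than 1 gene. Besides the UGT1A and CYP2B6 probes these were the probes of CYP2A7 (also CYP2A6), CYP2D6 (also CYP2D7), GSTA2 (also GSTA1 and GSTA5), GSTM1 and GSTM4 (each also the other), GSTT2 (also GSTT2B), SULT1A4 (also SULT1A3), UGT2B10 (also UGT2B11), UGT2B11 (also UGT2B28) and UGT2B15 (also UGT2B17). Values under these names may hold signal of the paralogs.

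Most of the 70 genes were detected in Hep3B. On all 4 arrays 53 of them (75.7%) were detected, against 61.7% of all gene names. By family these were 14 of 15 GST, 8 of 10 UGT, 25 of 34 CYP and 6 of 11 SULT genes. A further 6 genes were detected on the mock array and on 2 of the 3 knockdown arrays. CYP1B1 was missed with shR-467, and CYP2F1, CYP2S1, SULT2B1, SULT4A1 and SULT6B1 with shR-554. The remaining 11 genes failed the filter for comparisons, which asked for detection in the mock or with every hairpin. They were CYP2C8, CYP4A22, CYP4B1, CYP4F22, CYP4X1, CYP4Z1, GSTA3, SULT1B1, SULT1C3, UGT2A1 and UGT2A2, of which GSTA3 alone was detected, on 1 array. CYP2C8, a P450 of adult liver that oxidises paclitaxel, gave signals of 11.2, 12.6, 7.21 and 9.65, all under the detection limit. No difference is given for these 11 genes. The brightness of a probe depends on its sequence, so signals of different genes do not rank their mRNAs.

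Of the 59 genes that passed the filter, 3 were at least 1.5-fold higher and 9 at least 1.5-fold lower than on the mock array on average over the hairpins. These are 5.08% and 15.3% of the 59, where 2.28% and 7.65% of all 25133 genes that passed were higher and lower. SULT2A1, CYP1A2 and CYP2E1 were the higher genes, and CYP4F11, CYP3A5, UGT1A8, UGT1A6, SULT1E1, CYP2C18, SULT6B1, CYP2S1 and CYP2U1 the lower ones. Among the 53 genes detected on all 4 arrays, 3 were higher and 7 lower, against 2.34% and 2.92% of all genes measured that well. With every hairpin, 0 of 59 genes were at least 1.5-fold higher (0.537% of all genes) and 1 gene, CYP4F11, was at least 1.5-fold lower (1.21% of all genes). Opposite differences were averaged for GSTA5, SULT2B1 and SULT6B1, the 3 genes whose values were at least 1.5-fold higher with 1 hairpin and at least 1.5-fold lower with another (3.09% of all genes). Of these, SULT2B1 was not detected with shR-554, and its log2 difference there was -0.38, short of 1.5-fold, once spots under the detection limit were raised to it. With the same step CYP1B1 joined them, at -0.93 with shR-467, where it was not detected, and 0.59 with shR-749. Conversely, 31 of the 53 genes so detected differed from the mock by less than 1.2-fold on average, where 72.1% of all genes measured that well did so.
With normexp background correction followed by quantile normalization, 2 genes were higher and 4 lower on average, namely CYP1A2, SULT2A1, CYP4F11, SULT1E1, UGT1A6 and UGT1A8. At 2-fold only SULT2A1 and CYP4F11 remained of the 12. Without shR-554, 6 genes were higher and 4 lower, so that the balance of directions turned, and without shR-749 1 was higher and 10 lower. Shares over all genes were not computed with a hairpin left out, so this turn cannot be called particular to the enzyme genes. With quantile normalization, the authors' processed values or dim signals raised to the detection limit, 4 were higher and 8 lower, as CYP2S1 left the lower genes and SULT2B1 joined the higher ones.

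**Figure D1:**
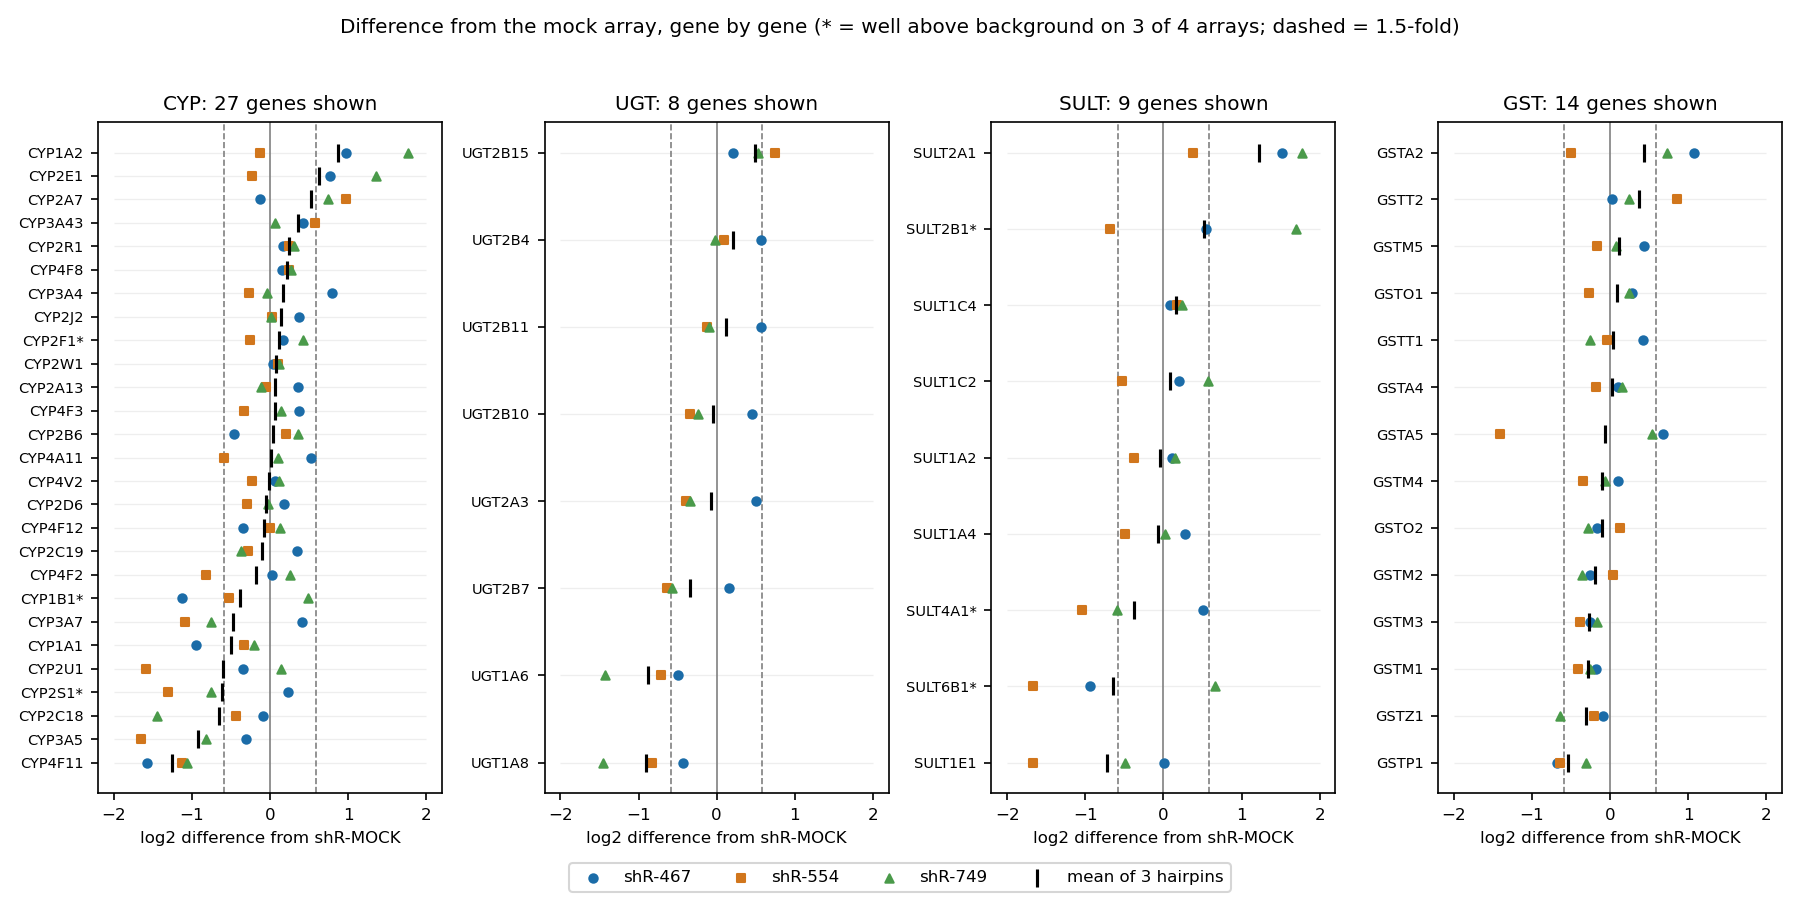
Log2 difference from the mock array (x axis) for 58 of the 59 genes that passed the filter, 1 panel per family, with 1 point per hairpin and a black bar for the mean. CYP4F11, at the foot of the CYP panel, is the only gene with all 3 points beyond the dashed 1.5-fold line, and all 14 GST means lie between the lines.

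The counts differed between hairpins. With shR-467, 6 of 59 genes were at least 1.5-fold higher and 5 lower, against 7.29% and 6.76% of all genes. With shR-554 there were 3 higher and 15 lower, against 4.41% and 15.9%, and with shR-749 there were 7 higher and 9 lower, against 5.41% and 10.3%. The median difference over the 53 well measured genes was 0.16, -0.27 and 0.02 on the log2 scale by hairpin. Over all genes measured that well the medians were 0.04, 0.00 and -0.03. The median SD between hairpins was 0.36 for the 53 genes and 0.22 for all genes so detected.
A single mock array limits any test. No exact permutation of 1 array against 3 can give a p below 0.25. A limma fit over all 25133 genes called 0 of 59 enzyme genes at an adjusted p under 0.05 and 0% of all genes, and the adjusted p of each of the 59 was 1. At an unadjusted p under 0.05 it called 3 of the 59, CYP4F11, SULT2A1 and UGT1A6, and 1.52% of all genes. On the same values the methods' t-test called 0 of the 59 unadjusted or adjusted, and 646 of all 25133 genes unadjusted and 0 adjusted. Differences below are therefore sizes read against the spread between hairpins, and none of them passed a test.

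SULT2A1 had the highest mean difference of the 59 genes. It encodes the sulfotransferase of dehydroepiandrosterone and bile acids. Its signals were 663.9, 1665, 1070 and 2285, so every knockdown array was above the mock array. After scaling, SULT2A1 stood 2.87-fold, 1.30-fold and 3.41-fold above the mock with the hairpins. The mean log2 difference was 1.22 ± 0.74 (SD, n = 3 hairpins), with a limma adjusted p of 1. With shR-554, the hairpin of the smallest difference, left out, the mean was 1.65. It was 1.07 without shR-467 and 0.95 without shR-749.

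SULT1E1, the estrogen sulfotransferase, was lower on average. Its signals were 1265, 1110, 494.9 and 905.5. The mean log2 difference of -0.72 ± 0.86 (SD, n = 3) came mainly from shR-554, with which SULT1E1 was at 31.5% of the mock, while with shR-467 it was at 100.5%. Without shR-554 the mean was -0.24.
The phenol sulfotransferases SULT1A2 and SULT1A4, both bright, stayed close to the mock, with mean log2 differences of -0.04 ± 0.29 and -0.06 ± 0.39 (SD, n = 3). SULT1C4 was the least variable SULT gene on its brighter probe, with differences of 0.09, 0.17 and 0.24 on the log2 scale. The second SULT1C4 probe, also detected on all 4 arrays, gave 0.36, 0.39 and 0.59. Both were dim, with mock signals of 48.8 and 25.4. SULT6B1, lower on average by -0.65, rested on probes near background: its signals were 65.0, 29.5, 25.4 and 104, and it was not detected with shR-554. SULT2B1, a sulfotransferase of cholesterol, was also not detected with shR-554, and its signals were 29.7, 37.8, 23.0 and 97.5.

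Among the cytochromes P450, CYP4F11 was the only gene of the 70 lower by at least 1.5-fold with every hairpin. It encodes an omega-hydroxylase of long-chain fatty acids and vitamin K. Its signals were 122, 35.8, 69.3 and 59.2. The 3 knockdown values did not overlap the mock value and came to 33.6%, 45.8% and 48.1% of it after scaling. The mean log2 difference was -1.25 ± 0.28 (SD, n = 3), with a limma adjusted p of 1. The probe was dim, at 1.40 times the detection limit with shR-467, and with normexp correction the mean was -0.71. A second CYP4F11 probe was not detected on any array and gives no difference. The other CYP4F genes that passed the filter lay nearer the mock. Mean log2 differences were 0.22 ± 0.06 for CYP4F8, 0.06 ± 0.36 for CYP4F3 and -0.08 ± 0.24 for CYP4F12 (SD, n = 3 each). CYP4F2, which hydroxylates leukotriene B4 and vitamin K, was the only gene whose well measured probes differed in sign, with means of -0.18 for the brighter probe and 0.11 for the second.

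The CYP3A genes lie side by side on chromosome 7. CYP3A5, which oxidises many of the drugs that CYP3A4 oxidises, gave 192.3, 135.8, 75.9 and 109.8. All 3 knockdown arrays were below the mock, at 80.9%, 31.8% and 56.6% of it, with a mean log2 difference of -0.93 ± 0.68 (SD, n = 3). Without shR-554 the mean was -0.56, short of 1.5-fold. A second CYP3A5 probe was not detected with shR-554 and gave 32.7 with shR-MOCK, 28.6 with shR-467 and 27.4 with shR-749, log2 differences of 0.00 and -0.27. CYP3A7, the form of fetal liver, was higher with shR-467 by 0.42 and lower with shR-554 and shR-749 by -1.09 and -0.76 on the log2 scale, and its second probe gave 1.29, -1.04 and -0.58. CYP3A4, the main drug-oxidising P450 of adult liver, was near background with signals of 45.4, 68.8, 46.9 and 44.5. Its mean log2 difference of 0.16 ± 0.56 (SD, n = 3) was within the spread between hairpins. For CYP3A43 the differences were 0.43, 0.58 and 0.07.

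In the CYP1 family, whose members oxidise aromatic hydrocarbons and are induced through the aryl hydrocarbon receptor, the neighbouring genes CYP1A1 and CYP1A2 on chromosome 15 differed in direction. CYP1A1 gave 2785, 1260, 2755 and 2443. It was below the mock after scaling with each hairpin, by -0.95, -0.33 and -0.20 on the log2 scale, a mean of -0.49 ± 0.40 (SD, n = 3). CYP1A2 gave 147, 251.9, 167.5 and 505. It was higher with shR-467 and shR-749, by 0.97 and 1.77 on the log2 scale, but not with shR-554, where the difference was -0.12, so the mean was 0.87 ± 0.95 (SD, n = 3). Without shR-749 that mean was 0.42. CYP1B1, the extrahepatic member of the family, gave 55.7, 48.0 and 79.1 on the arrays where it was detected and 22.3 with shR-467, where it was not. Its mean log2 difference on this probe was -0.39 ± 0.82 (SD, n = 3). A second CYP1B1 probe, detected only with shR-MOCK and shR-554, gave 38.9, 20.6, 24.3 and 14.9. With the probes averaged the mean was -0.71, past 1.5-fold.

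CYP2E1, which oxidises ethanol and paracetamol, followed the same order of hairpins as CYP1A2 at a much dimmer probe. Its signals were 27.2, 40.5, 28.8 and 70.3, and that with shR-554 was 1.02 times the detection limit. The mean log2 difference was 0.63 ± 0.80 (SD, n = 3), and it was 0.29 with normexp correction and 0.27 without shR-749. CYP2C18 gave 641.5, 527.5, 589.1 and 238.2, so that shR-749 alone took it past 1.5-fold, to 36.8% of the mock. Its mean of -0.65 ± 0.70 (SD, n = 3) was -0.26 without shR-749. CYP2C19, a neighbour on chromosome 10 that activates clopidogrel, had a mean of -0.10 ± 0.39 (SD, n = 3). CYP2U1, a fatty acid hydroxylase, gave 283, 194, 117 and 315, and its mean of -0.60 ± 0.89 (SD, n = 3) was -0.10 without shR-554. CYP2S1, with a mean of -0.61, was not detected with shR-554, and its mean was -0.25 with dim signals raised to the detection limit.
Several bright or well known CYP2 genes lay near the mock. CYP2W1, a P450 of fetal tissue and of tumours, gave 154000, 138000, 205000 and 168000, and its scaled differences were 0.04, 0.10 and 0.11 on the log2 scale. CYP2R1, the vitamin D 25-hydroxylase, was higher by 0.24 ± 0.07 (SD, n = 3), with all 3 hairpins above the mock and none at 1.5-fold. CYP2B6 had means of 0.03 ± 0.43 on the brighter probe, annotated also to CYP2B7P, and 0.16 ± 0.17 on the second (SD, n = 3). CYP2D6, which oxidises codeine and many antidepressants, had means of -0.05 ± 0.24 and -0.29 ± 0.24 on its probes (SD, n = 3).

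**Figure D2:**
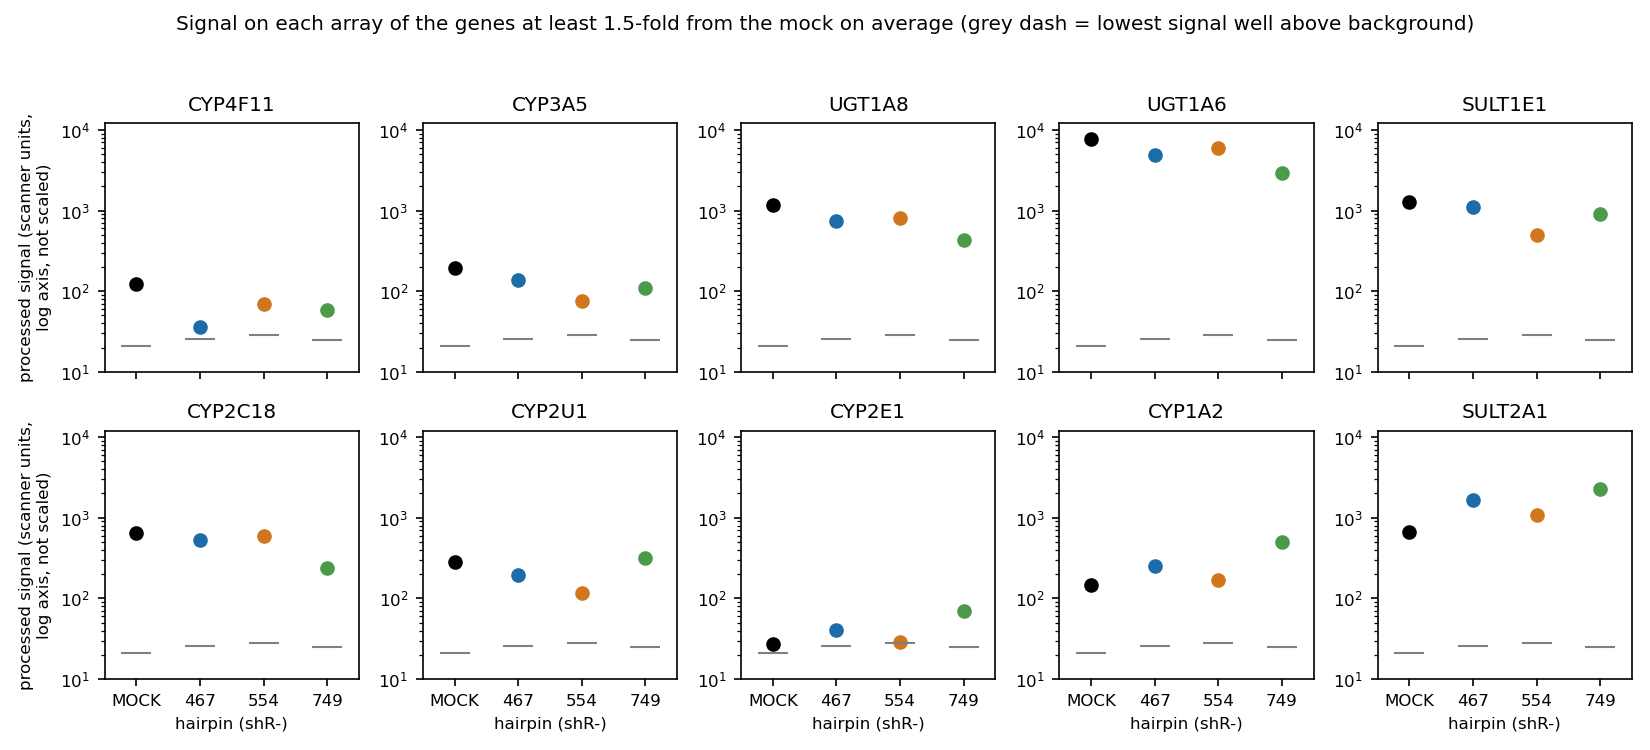
Processed scanner signal (y axis, log scale, before scaling between arrays) on each of the 4 arrays (x axis) for the 10 genes detected on all arrays and at least 1.5-fold from the mock on average, ordered from CYP4F11 to SULT2A1, with a grey dash at the detection limit of each array. CYP4F11 and CYP2E1 come close to the dashes, and UGT1A6 and SULT2A1 do not. The shR-554 point stands apart from the other hairpins in SULT1E1 and is the lowest in CYP2U1.

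The UGT1A locus was read 3 times and was below the mock array each time. The brighter UGT1A6 probe gave 7776, 4835, 5882 and 2905. The UGT1A8 probe gave 1155, 747, 807 and 427, and the second UGT1A6 probe 2510, 1130, 1540 and 698. On all 3 probes every knockdown array was below the mock array and shR-749 was lowest. The mean log2 differences were -0.88 ± 0.49 for the brighter UGT1A6 probe, -0.90 ± 0.51 for the UGT1A8 probe and -1.28 ± 0.51 for the second UGT1A6 probe (SD, n = 3 each). The last of these reached 1.5-fold with every hairpin, at -0.96, -1.02 and -1.86, so that UGT1A6 joined CYP4F11 in that class when the probes of a gene were averaged. The signals were far from background, with the lowest of the brighter UGT1A6 probe at 116 times the detection limit. Since these probes are annotated to shared UGT1A transcripts, including that of UGT1A1, the enzyme that conjugates bilirubin, they are not independent readings and cannot be given to 1 isoform.
The UGT2 genes, which conjugate steroids, bile acids and fatty acids and lie on chromosome 4, lay nearer the mock on average. UGT2B10 gave 39500, 47000, 38600 and 33700 and a mean log2 difference of -0.05 ± 0.43 (SD, n = 3). UGT2B11 had a mean of 0.12 ± 0.40 and UGT2B7, the main glucuronosyltransferase of morphine, one of -0.35 ± 0.44 (SD, n = 3 each). UGT2B15, an androgen-conjugating form, was above the mock with each hairpin, by 0.21, 0.75 and 0.53 on the log2 scale, but was annotated also to UGT2B17.

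The glutathione S-transferases had the highest share of detected genes among the 4 families and the smallest median spread between hairpins. Of the 14 that passed the filter, 0 reached 1.5-fold on average, where 2.28% of all genes that passed were higher and 7.65% lower. Among only 14 genes, a count of 0 lies near these shares. The GST means ranged from -0.54 for GSTP1 to 0.43 for GSTA2. The median SD between hairpins was 0.26 for GST genes, 0.39 for CYP, 0.43 for UGT and 0.47 for SULT genes. Over all genes detected on all 4 arrays it was 0.22, below that of each family. GSTP1, the pi-class enzyme that is scarce in normal hepatocytes, gave 410.1, 224.6, 325.6 and 334.5. It was below the mock with each hairpin after scaling, at 62.7%, 64.0% and 80.8%. GSTM3 was also below with each hairpin, by -0.27 ± 0.11 (SD, n = 3), from a signal of 22160 on the mock array. GSTO1, an omega-class enzyme that reduces dehydroascorbate, differed by 0.08 ± 0.31 and GSTT2, a theta-class enzyme, by 0.37 ± 0.43 (SD, n = 3 each), the latter mainly with shR-554 at 0.86.
The alpha-class probes split by hairpin. GSTA5 gave 219, 307, 102 and 320 and GSTA2 gave 115, 211.5, 101.2 and 191.9. Both were above the mock with shR-467 and shR-749 and below it with shR-554, and the GSTA2 probe is annotated also to GSTA1 and GSTA5. GSTA4, which conjugates 4-hydroxynonenal, had means of 0.03 and 0.07 on its pair of probes.

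Repeat measurement by a second probe was possible for 18 genes, and 10 of them had both probes detected on all 4 arrays. Their mean differences had the same sign in 9 genes and opposite signs in CYP4F2. The gap between the means of a pair ranged from 0.05 to 0.40, with a median of 0.22, on the log2 scale.

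**Figure D3:**
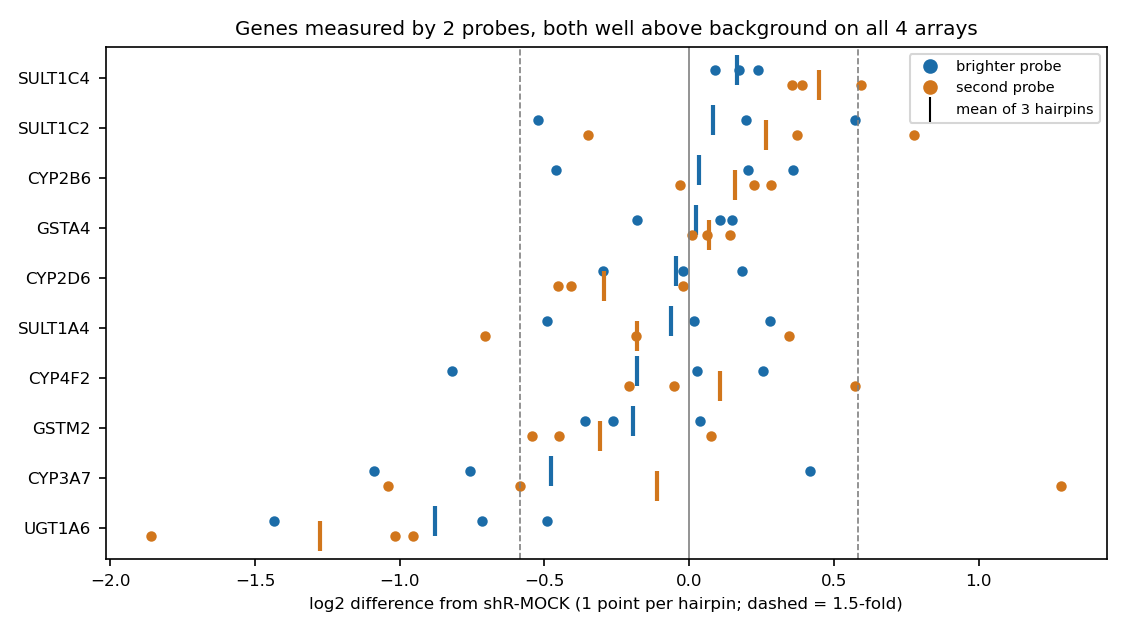
Log2 difference from the mock array (x axis) of the brighter (blue) and the second probe (orange) of the 10 genes with both probes detected on all arrays, with 1 point per hairpin and a bar at the mean. UGT1A6 is below 0 at all 6 points, whereas the probes of CYP3A7 show the same split between hairpins, above 0 with 1 hairpin and below 0 with the other two.

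Other genes of drug metabolism were read from 4 lists. Of 18 partners and regulators of cytochromes P450, 17 passed the filter, with 0 at least 1.5-fold higher and 1 lower on average, 0 called by limma and a median log2 difference of 0.05. The median over all 25133 genes was -0.03. POR, the oxidoreductase that feeds electrons to every microsomal P450, gave 2236, 2790, 3220 and 2920, a mean difference of 0.37. AHR, the receptor that induces the CYP1 genes, had a mean of -0.18, and NR1I3, the constitutive androstane receptor, one of 0.18. The lower gene was NR1I2, the pregnane X receptor that induces CYP3A4, with signals of 30.9, 36.7, 11.2 and 17.7, of which those of shR-554 and shR-749 were not detected. With dim signals raised to the detection limit its mean was -0.11, short of 1.5-fold. The probe of NFE2L2, the regulator of antioxidant genes, was not detected on any array.
Of 10 genes that supply the co-substrates UDP-glucuronic acid, activated sulfate and glutathione, all 10 were detected on 4 arrays and 0 reached 1.5-fold on average, with a median of -0.13. PAPSS2, a synthase of activated sulfate, had the lowest mean at -0.50, with 1489, 1140, 842.3 and 1340.
Of 28 further enzymes of drug metabolism, 26 passed the filter, with 0 higher and 2 lower on average, and a median of 0.06. The lower genes were ADH1C, an alcohol dehydrogenase, at -0.60, and NNMT, which methylates nicotinamide. NNMT gave 27.9 with shR-MOCK and was not detected on any knockdown array, so only a bound can be given, and it was at least 1.09-fold lower, with each knockdown array set to its detection limit. Of 16 transporters 15 passed the filter, with 1 higher, 0 lower and a median of 0.05. SLC22A7, an organic anion transporter of hepatocytes, was the higher gene, at 0.27, 1.69 and 0.32 on the log2 scale. The canalicular exporters ABCB1 and ABCC2 had means of 0.06 and 0.04. In these 4 lists limma called 0 genes at an adjusted p under 0.05.

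**Figure D4:**
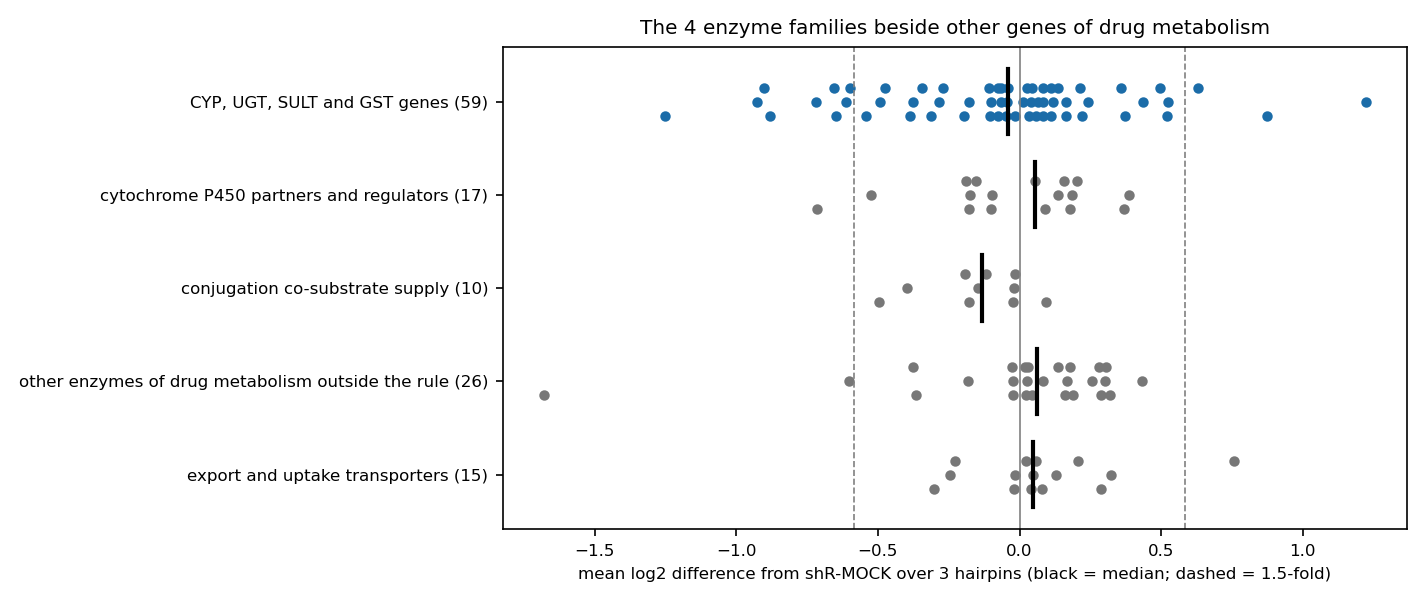
Mean log2 difference from the mock array over the 3 hairpins (x axis) for the 59 CYP, UGT, SULT and GST genes and for 4 lists of other genes of drug metabolism, 1 point per gene that passed the filter, with a black bar at the median. The medians lie between -0.13 and 0.06. At or beyond the dashed 1.5-fold lines are 12 of the 59 enzyme genes. In the lists, from top to bottom, these are 1 of 17, 0 of 10, 2 of 26 and 1 of 15 genes. Over all genes that passed the filter, 2.28% were higher and 7.65% lower by this measure. Of the 12 enzyme genes, CYP2S1 and SULT6B1 were not detected with shR-554. The points of NNMT, at the far left, and of NR1I2, the lowest of the partners and regulators, come in whole or in part from knockdown signals that were not detected.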

How the data were processed

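Each array was deposited as the output of Agilent Feature Extraction 10.7.1.1, in which the authors give the intensity of each spot with the local background subtracted. A second deposited table holds log2 values processed by the authors, with a normalization not given in the sources used here, and served as an alternative. Per the file headers, the arrays shared 1 slide and 1 scan.

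Processed signals were put on the log2 scale and centred on the 75th percentile of their array. The spots of a probe were averaged, without the 254 to 466 spots per array that the scanner software flagged as non-uniform or population outliers. A probe was detected when at least 50% of its spots were marked well above background. The detection limit was set on single spots, so the mean signal of a detected probe could lie under it. For CYP4A11 with shR-554 it was 25.2 against a limit of 28.3. The number of arrays limits the precision. Differences were tested with limma 3.58.1 in R 4.3.3 (trend, Benjamini-Hochberg, 2 residual degrees of freedom), under the assumption that mock cultures vary as much as hairpins do. The steps were tested on simulated data for the sign and size of differences. With a single mock array, the lack of limma calls does not show that genes were unchanged. Python 3.11.15, numpy 2.4.6, pandas 2.3.3 and matplotlib 3.10.9 were used.

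The genes, lists and tests were chosen with earlier results of these data known. Named by rule were UNC50, the 3 brightest well measured genes of each family, every well measured gene at 1.5-fold on average, every gene at 1.5-fold with each hairpin, genes whose probes differ in sign, and 8 well known CYP genes. Other enzymes and the list genes were named, and the values by hairpin with raised dim signals added, after the data were seen. Marker lists covered hepatocytes and hepatoma, leukocytes, endothelium, fibroblasts and stellate cells, and cholangiocytes. LYZ was not matched by name. The values of 1 gene and 1 probe sequence are not reported here. Of the lists not given above, 3 of 5 endothelial and 3 of 7 fibroblast and stellate markers passed the filter, and 0 and 1 were at least 1.5-fold higher on average.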

Additional observations from a re-analysis of the deposited data

How the results depend on the processing

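The values were recomputed with quantile normalization, with median scaling, with normexp (offset 50), from the authors' processed values and with dim signals raised to the detection limit. They were also recomputed with flagged outlier spots included, with probes of a gene averaged, under other filters and thresholds, and with each hairpin left out. The count of 12 genes at 1.5-fold on average was 6 with normexp and 2 at 2-fold. With the probes of a gene averaged it was 13, as CYP1B1 joined the lower genes. It ranged from 10 to 15 with each hairpin left out, and without shR-554 6 were higher and 4 lower. The count of 1 gene with every hairpin was 2 with the mean over probes, and 3 to 8 with each hairpin left out (8 without shR-467, 5 without shR-554 and 3 without shR-749), larger by construction as fewer hairpins had to pass. The count of 53 detected genes came to 60 with 1 array asked for, 59 on the mock array and 53 with any probe. limma called 0 of these genes under each of its 7 alternatives, with smallest adjusted p-values from 0.11 to 1. UNC50 was -2.45 on the log2 scale, and -2.64 to -2.24 under the alternatives, which were applied to it after seeing the data. Of 280 alternative values for the 28 named genes, 276 stayed within the SD between hairpins and 0 reversed a difference of 1.5-fold. Values with 1 hairpin left out were bound by construction to stay within this SD. Other settings, such as flagged outlier spots included, often left a value unchanged, so the count of 276 is no measure of robustness. The 4 values beyond the SD were smaller, namely CYP4F11 with normexp (-0.71) and CYP2W1 with quantile normalization, normexp and the authors' values, where it was 0.00. Apart from the threshold and the hairpins left out, the cause was not tested. Signal over background limits the dim genes, CYP4F11 and CYP2E1 among them.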
